A study of Mus musculus with 6 samples.

Results

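Genes of fatty acid oxidation and ketone body metabolism were followed along the mouse colon. The group comprised 39 genes listed by name, chosen with earlier results of these data known. They were the enzymes, carriers and electron acceptors of fatty acid breakdown and the ketone body enzyme Bdh1. A set of regulators with 2 of their known targets completed the group. All 39 were found among the 24346 gene entries, and all 39 passed the filter on low values used below. The samples were epithelial cells of the distal, middle and proximal colon of wild-type, untreated C57BL/6J mice, an inbred laboratory strain. Each region had 1 female and 1 male library of polyadenylated RNA, 6 libraries in all. The labels give no age, and do not say whether a library pools mice or whether the 3 regions of a sex share mice. The p-values below therefore set each difference against the scatter of these particular libraries, part of which may be technical. With sex in the model, that scatter rests on how far the region differences disagree between the sexes.

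Fatty acids are activated to acyl-CoA, carried into mitochondria as carnitine esters, and shortened by repeated rounds of dehydrogenation, hydration, a second dehydrogenation and thiolysis. Very long and branched chains are first shortened in peroxisomes. Colonocytes draw much of their energy from butyrate, a short-chain fatty acid made by gut bacteria. Acetyl-CoA from these rounds can be turned into ketone bodies. The nuclear receptor PPAR alpha, encoded by Ppara, pairs with retinoid X receptors and induces many genes of the pathway.

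Expression is given as FPKM, fragments per kilobase of transcript, scaled to sequencing depth, a scale on which levels of different genes can be set side by side. Total FPKM was 546269 to 612818 per library, and the spacing of the lowest values placed depth at 7.85 to 9.92 M fragments, as an estimate. The epithelial markers Epcam, Krt8, Krt18, Krt19, Cdh1 and Vil1 summed to 7453 to 9168 FPKM. The male proximal library stood apart from the other 5. Its most abundant gene was the carbonic anhydrase Car1, with 3.43% of all FPKM, where Lypd8, an antibacterial colonocyte protein, led the others. Of the 39 members, 29 (74.4%) had their highest value of the 6 libraries there, against 23.9% of the 11815 genes kept by the filter. The members' median and some genes are therefore also given without that library.

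In distal against proximal colon, 31 of the 39 members (79.5%) had a fitted value below 0, against 49.0% of all genes tested. Among those that passed the test, Ppara and the targets Pdk4 and Angptl4 had larger differences than the mitochondrial enzymes. Differences were fitted on log2(FPKM + 1), with region and sex in the model (limma, Benjamini-Hochberg adjusted over 11815 genes, threshold 0.05). By this test 9 members fell and 2 rose in distal colon, 28.2% of the members, where 14.1% of all genes tested passed in either direction (7.64% lower and 6.47% higher). The median difference of the members was -0.31 on the log2 scale, and that of all genes tested was 0.01. Both distal libraries were below both proximal libraries for 26 of 39 members, against 29.5% of all genes tested, and above them for 7 members, against 30.8%. The difference was below 0 in both sexes for 27 members, above 0 in both for 8 and of opposite sign for 4. The share of all genes in each of these groups was not computed. The members' median difference was -0.42 without the female distal library and -0.26 without the male distal library. Fewer genes passed without either of these libraries, over all genes as well as among the members. The median was -0.53 without the female proximal library and -0.22 without the male proximal library. In bulk RNA, fewer cells of a type and less RNA per cell cannot be told apart.

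**Figure D1:**
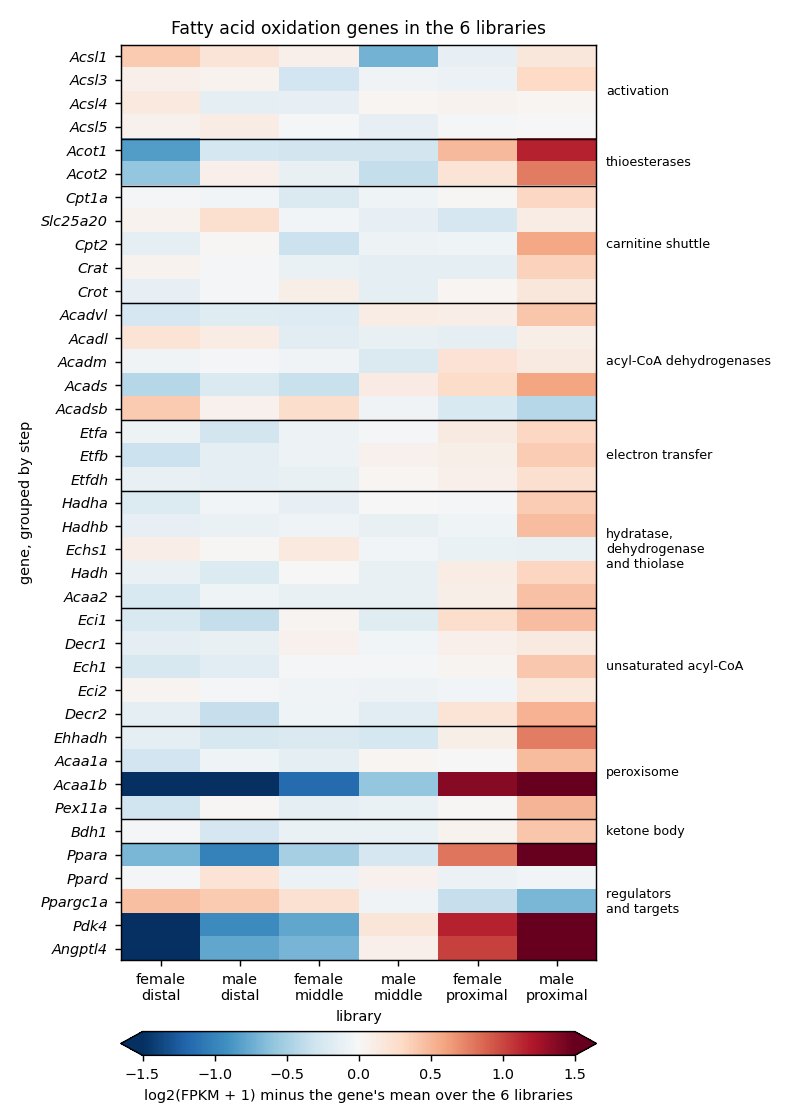
Heat map of the 39 members (rows, grouped by step) in the 6 libraries (columns, distal at the left). Colour is log2(FPKM + 1) minus the gene's own mean over the 6 libraries, with values beyond 1.5 in the end colours. The male proximal column holds the highest value of 29 genes, and Ppara, Pdk4, Angptl4 and Acaa1b have the widest range.

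No member gene of fatty acid activation passed a test between regions. Slc27a4 and Slc27a2, acyl-CoA synthetase genes outside the members, did pass and are given further below. Long-chain acyl-CoA synthetases attach coenzyme A, and Acsl3 was the most abundant of the 4. Acsl3 had 72.6 and 71.1 FPKM in the female and male distal libraries, 56.4 and 66.2 in the middle ones, and 64.9 and 84.7 in the proximal ones. The distal values lay between the proximal ones and above both middle ones. None of the 4 synthetases passed the test by limma in any of the 3 comparisons between regions, at the adjusted threshold or at an unadjusted p under 0.05. For Acsl5 the distal minus proximal difference was 0.10 on the log2 scale (95% interval -0.14 to 0.35), and for Acsl1 it was 0.27 (-0.36 to 0.90). Acsl4, which prefers arachidonate, stayed at 1.81 to 2.40 FPKM in all 6 libraries.

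Of the 2 acyl-CoA thioesterases, which release free fatty acids from coenzyme A, Acot1 fell in distal colon. Acot1, the cytosolic enzyme (chromosome 12, 84009490 to 84018371, mm10), had 2.38 and 4.03 FPKM in the female and male distal libraries. The values were 3.96 and 3.99 FPKM in the middle libraries and 7.42 and 12.4 FPKM in the proximal ones. Both proximal libraries were above all 4 others. Acot1 fell by 1.37 on the log2 scale in distal against proximal colon (SE 0.20 and adjusted p = 0.012 by limma). Its neighbour Acot2, the mitochondrial enzyme, was at 2.87 and 5.09 FPKM in distal against 5.66 and 8.94 FPKM in proximal libraries, a difference of -0.74 (SE 0.25 and adjusted p = 0.12 by limma). The annotated coding sequences of these copies are 95.6% identical over 1236 aligned bases, and reads could pass between them. With both summed into 1 entry, an alternative chosen after seeing the data, the difference was -1.16 (limma adjusted p = 0.028). The Acot1 call was lost without either distal library (limma adjusted p up to 0.072).

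No carnitine shuttle gene passed a test between regions. Cpt1a makes the acylcarnitines at the outer mitochondrial membrane and controls the rate of entry. It was at 154 and 152 FPKM in the female and male distal libraries, 134 and 149 FPKM in the middle ones, and 159 and 194 FPKM in the proximal ones. Its distal minus proximal difference was -0.19 (95% interval -0.49 to 0.10). Slc25a20, the carrier that brings acylcarnitines across the inner membrane, was the most abundant shuttle gene, at 199 and 227 FPKM in distal, 186 and 176 FPKM in middle, and 161 and 207 FPKM in proximal libraries. Both distal values were above both middle ones and overlapped the proximal ones, and the distal minus proximal difference was 0.22 (95% interval -0.13 to 0.57). Cpt2, which returns the acyl group to coenzyme A, had 64.0 and 70.8 FPKM in distal against 67.0 and 105 FPKM in proximal libraries (log2 difference -0.31, SE 0.14, limma adjusted p = 0.22). The carnitine acyltransferases Crat and Crot, for acetyl and for peroxisomal medium-chain groups, stayed between 18.6 and 26.3 FPKM.

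Of the 5 acyl-CoA dehydrogenases, which open each round, 2 fell and 1 rose in distal against proximal colon. Acads, the short-chain enzyme that acts on butyryl-CoA (chromosome 5, 115110299 to 115119346), had the highest mean of the 5 over all libraries, although Acadl was higher in both distal libraries and in the female middle one. Acads had 119.8 and 138 FPKM in the female and male distal libraries, 127 and 175 FPKM in the middle ones, and 195 and 242 FPKM in the proximal ones. Both proximal libraries were above the other 4, and within each sex the value stepped down from proximal through middle to distal. Acads averaged 129 ± 12.8 FPKM in distal and 219 ± 33.1 FPKM in proximal colon (SD, n = 2 each). It fell by 0.76 on the log2 scale (SE 0.11 and adjusted p = 0.013 by limma). Without the male proximal library the difference was -0.77 (limma adjusted p = 0.025). The call was lost without either distal library, or with sex left out of the model (limma adjusted p up to 0.16).

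Acadvl, for very long chains, had 118 and 125 FPKM in distal, 123 and 153 FPKM in middle, and 151 and 189 FPKM in proximal libraries. It fell by 0.47 (SE 0.11) at the edge of the threshold (limma adjusted p = 0.0498), and 12 of 14 alternatives ended that call. Acadl, for long chains, had 167 and 157 FPKM in distal against 132 and 154 FPKM in proximal libraries (log2 difference 0.18, 95% interval -0.11 to 0.48). Acadm, for medium chains, had 86.2 and 87.2 FPKM in distal against 104 and 98.1 FPKM in proximal libraries (-0.22, 95% interval -0.47 to 0.03). Acadsb, which acts on short branched chains and belongs to isoleucine breakdown, rose. It had 9.34 and 7.19 FPKM in the female and male distal libraries, 8.40 and 6.55 FPKM in the middle ones, and 5.69 and 4.84 FPKM in the proximal ones. Acadsb was up by 0.56 on the log2 scale in distal colon (SE 0.12 and adjusted p = 0.036 by limma), and 8 of 14 alternatives ended the call.

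Electrons from these dehydrogenases pass through the flavoprotein ETF, made of Etfa and Etfb, to Etfdh and on to ubiquinone. Etfb had 168 and 191 FPKM in the female and male distal libraries, 198 and 219 FPKM in the middle ones, and 223 and 274 FPKM in the proximal ones. The distal libraries lay below the proximal ones, and each sex stepped down from proximal through middle to distal. Etfb fell by 0.46 on the log2 scale (SE 0.11 and adjusted p = 0.045 by limma), a call that 9 of 14 alternatives ended, among them leaving out any single library. The partner subunit Etfa was at 148 and 130 FPKM in distal against 172 and 195 FPKM in proximal libraries (-0.40, SE 0.13, limma adjusted p = 0.11). For Etfdh the difference was -0.28 (SE 0.10 and adjusted p = 0.14 by limma).

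None of the 5 enzymes that complete the mitochondrial round passed the limma test, and 3 had an unadjusted p under 0.05 in distal against proximal colon, where 29.2% of all genes did. Hadh, the short-chain hydroxyacyl dehydrogenase, was the most abundant. It had 258 and 240 FPKM in the female and male distal libraries, 275 and 258 FPKM in the middle ones, and 300.4 and 346 FPKM in the proximal ones. All distal values were below all proximal values (log2 difference -0.37, SE 0.13, limma adjusted p = 0.13). The thiolase Acaa2 had 123 and 138 FPKM in distal against 153 and 196 FPKM in proximal libraries (-0.41, SE 0.12, limma adjusted p = 0.090). The subunits of the trifunctional protein for long chains, Hadha and Hadhb, had differences of -0.31 each (limma adjusted p = 0.15 and 0.28). Echs1, the short-chain enoyl-CoA hydratase, lay the other way at 141 and 133 FPKM in distal against 123 and 122 FPKM in proximal libraries, a difference of 0.16 (95% interval -0.09 to 0.42).

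Double bonds are handled by isomerases and reductases. All 5 of these genes had fitted values below 0 in distal against proximal colon, where 49.0% of all genes tested did. Ech1, a dienoyl-CoA isomerase, was the most abundant of all members. It had 261 and 276 FPKM in the female and male distal libraries, 303 and 307 FPKM in the middle ones, and 319 and 411 FPKM in the proximal ones, lower at each step toward distal in each sex (distal minus proximal -0.43, SE 0.13, limma adjusted p = 0.0997). Eci1, the mitochondrial enoyl-CoA isomerase, was the one that passed. Its values were 49.0 and 45.0 FPKM in distal, 59.6 and 50.9 FPKM in middle, and 69.3 and 79.7 FPKM in proximal libraries. Eci1 fell by 0.65 on the log2 scale in distal colon (SE 0.13 and adjusted p = 0.031 by limma). The call was lost without the male proximal library or either distal library, and in 2 other alternatives (limma adjusted p up to 0.24). The peroxisomal reductase Decr2 had a difference of -0.61 (SE 0.15 and adjusted p = 0.056 by limma), and Decr1 one of -0.23. For Eci2 it was -0.04 (SE 0.11), with 0.08 in females and -0.17 in males.

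**Figure D2:**
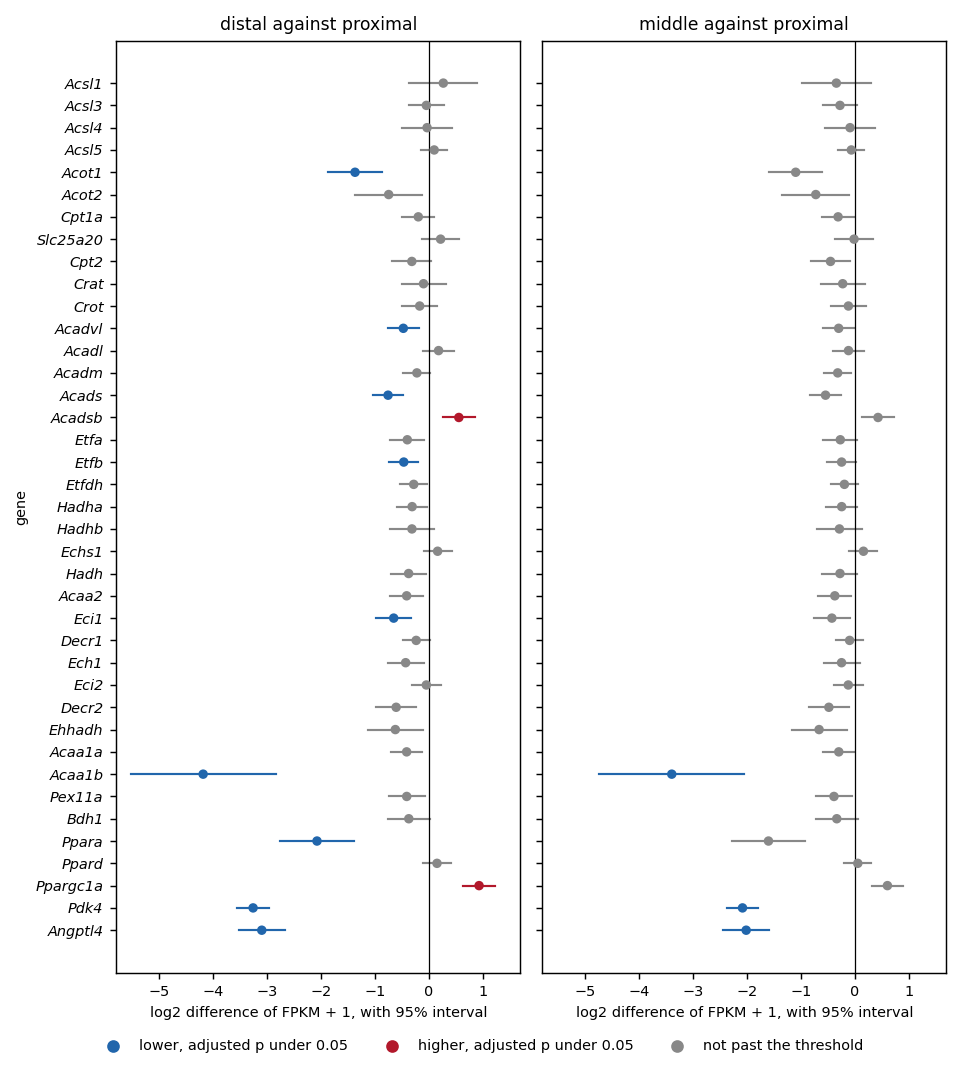
Fitted log2 differences of FPKM + 1 for the 39 members, distal against proximal (left) and middle against proximal (right), with 95% intervals from the model. Blue and red mark genes lower and higher at an adjusted p under 0.05. In the left panel 9 genes are lower and 2 higher, and Pdk4, Angptl4, Ppara and Acaa1b lie farthest from 0. The distal value of Acaa1b is listed at 0, so its plotted position depends on the added 1 FPKM.

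The peroxisomal thiolases gave the most uneven pair. Thiolases cut the shortened chain from acetyl-CoA, and the mouse has 2 near-identical peroxisomal genes, Acaa1a (chromosome 9, 119339676 to 119350299, plus strand) and Acaa1b (chromosome 9, 119148023 to 119157093, minus strand). Their annotated coding sequences align over 1272 bases with 96.5% identity, and 37.9% of the 50-base windows of Acaa1b occur unchanged in Acaa1a. The first 90 coding bases of each, taken from GENCODE M21 on GRCm38, show how alike the copies are, with the 3 positions that differ in capitals:
Acaa1b: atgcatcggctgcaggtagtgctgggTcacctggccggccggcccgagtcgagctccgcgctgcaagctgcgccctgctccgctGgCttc
Acaa1a: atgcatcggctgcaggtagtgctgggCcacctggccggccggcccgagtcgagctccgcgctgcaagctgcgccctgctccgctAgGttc

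Acaa1b was listed at 0 in both distal libraries, at 0.414 and 1.11 FPKM in the female and male middle libraries. The female and male proximal libraries had 7.16 and 39.6 FPKM. Elsewhere Acaa1b reached 1 FPKM only in the male middle library. It thus met the filter, 1 FPKM in 2 libraries, through the proximal values that its test also used. It passed the test in distal against proximal colon (limma adjusted p = 0.0091), in 13 of 13 alternatives that tested it as its own entry, and no fold is given against values of 0. In middle against proximal colon it fell by 3.40 on the log2 scale (SE 0.54 and adjusted p = 0.048 by limma), a call that 5 of 13 alternatives ended, among them leaving out either middle library (limma adjusted p = 0.246 and 0.21). Acaa1a, the more abundant copy, had 54.2 and 63.4 FPKM in distal, 59.6 and 67.6 FPKM in middle, and 66.0 and 92.7 FPKM in proximal libraries (distal minus proximal -0.41, SE 0.12, limma adjusted p = 0.078). With the FPKM of both copies summed, the difference was -0.74 (limma adjusted p = 0.055), which missed the threshold. In that sum the less abundant Acaa1b is added to Acaa1a. How the authors' counting divided shared reads is not given in the sources used here, and its part in the Acaa1b call was not tested.

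The 250 bases before the RefSeq start of each copy are printed because 1 copy was listed at 0 where the other was abundant (RefSeq, GRCm38.p6, each on its gene's strand, chr9:119157094-119157343 for Acaa1b and chr9:119341044-119341293 for Acaa1a). The GENCODE span of Acaa1a given above starts upstream of its RefSeq start, so this stretch lies inside that span:
Acaa1b: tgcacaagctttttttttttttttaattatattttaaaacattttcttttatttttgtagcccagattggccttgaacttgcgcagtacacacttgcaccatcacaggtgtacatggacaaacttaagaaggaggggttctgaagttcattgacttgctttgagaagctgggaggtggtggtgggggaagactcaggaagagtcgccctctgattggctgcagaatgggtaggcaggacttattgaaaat
Acaa1a: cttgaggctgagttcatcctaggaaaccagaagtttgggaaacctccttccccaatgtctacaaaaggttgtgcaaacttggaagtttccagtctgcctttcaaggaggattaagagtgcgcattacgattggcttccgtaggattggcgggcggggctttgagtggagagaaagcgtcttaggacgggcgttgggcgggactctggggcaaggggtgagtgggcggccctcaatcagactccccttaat

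PPAR receptors bind repeats of the half-site AGGTCA with 1 base between. The exact letters AGGTCANAGGTCA and the looser AGGNCANAGGNCA were searched on both strands of the 300-base RefSeq promoter windows, 37 windows for 35 of the 39 members. The exact letters were in 0 of the 37 and in 0.0396% of all 32851 promoter windows. The looser letters, which include the exact ones, were in 0 of the 37 and in 0.381% of all windows. Repeats this rare would be absent from most lists of 37 windows, so these counts do not set the members apart. Sequence outside the windows was not searched. A single half-site, which the repeats contain, was in 4 of 37 windows (10.8%), against 16.3% of all windows, and in neither of the printed sequences.

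The other peroxisomal members did not pass the test. Ehhadh, the peroxisomal enzyme that combines hydratase and dehydrogenase, had 22.8 and 21.4 FPKM in distal, 21.8 and 21.0 FPKM in middle, and 27.1 and 43.7 FPKM in proximal libraries. All 4 distal and middle values were below both proximal ones (distal minus proximal -0.62, SE 0.20, limma adjusted p = 0.11). Without the male proximal library the difference was -0.25. Pex11a, which promotes division of peroxisomes, had a difference of -0.41 (SE 0.13 and adjusted p = 0.11 by limma).

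Of the 5 regulators and targets, 3 fell and 1 rose in distal against proximal colon. Ppara itself (chromosome 15, 85734983 to 85802819) had 4.49 and 3.36 FPKM in the female and male distal libraries, 5.25 and 6.37 FPKM in the middle ones, and 14.4 and 26.5 FPKM in the proximal ones. Both proximal libraries were above all others. Ppara averaged 3.92 ± 0.80 FPKM in distal and 20.5 ± 8.54 FPKM in proximal colon (SD, n = 2 each). It fell by 2.07 on the log2 scale (SE 0.27 and adjusted p = 0.0098 by limma). The call held in 14 of 14 alternatives, with a difference of -2.51 to -1.63. In middle against proximal colon the difference was -1.60 (SE 0.27 and adjusted p = 0.0545 by limma).

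Pdk4, a kinase that shuts off pyruvate dehydrogenase and so favours fatty acids as fuel (chromosome 6, 5483351 to 5496309), stepped down through all regions. It had 3.50 and 8.33 FPKM in the female and male distal libraries, 9.50 and 19.4 FPKM in the middle ones, and 39.2 and 94.7 FPKM in the proximal ones. In every region the male value was above the female one, and no distal value reached a middle value of either sex. Pdk4 fell by 3.26 on the log2 scale in distal against proximal (SE 0.12 and adjusted p = 0.00092 by limma), by 2.08 in middle against proximal (limma adjusted p = 0.0097), and by 1.18 in distal against middle colon (limma adjusted p = 0.031). The first call held in 14 of 14 alternatives. The second was lost without the female middle library (limma adjusted p = 0.0792), with no filter and with sex left out. The third was lost in 7 of 14, among them leaving out any 1 of the 4 distal and middle libraries.

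Angptl4, a secreted inhibitor of lipoprotein lipase (chromosome 17, 33773750 to 33781830), had 1.66 and 5.23 FPKM in the female and male distal libraries. It had 5.59 and 10.3 FPKM in the middle libraries and 20.8 and 54.8 FPKM in the proximal ones. Angptl4 fell by 3.10 on the log2 scale in distal against proximal (SE 0.17 and adjusted p = 0.0017 by limma, called in 14 of 14 alternatives). In middle against proximal it fell by 2.02 (limma adjusted p = 0.023), a call lost without the female middle library (limma adjusted p = 0.0792), without the male one (0.0523), with no filter and with sex left out.

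Ppargc1a and Ppard did not follow Ppara. Ppargc1a, the coactivator PGC-1 alpha of mitochondrial genes (chromosome 5, 51454250 to 51567726), had 20.01 and 19.1 FPKM in the female and male distal libraries, 17.0 and 13.9 FPKM in the middle ones, and 11.1 and 8.56 FPKM in the proximal ones. It rose by 0.93 on the log2 scale in distal colon (SE 0.12 and adjusted p = 0.0086 by limma), which 13 of 14 alternatives kept; without the male distal library the adjusted p was 0.086. Ppard, the PPAR of broad distribution, had the highest mean of these 5 genes over all libraries, though Pdk4 was above it in the male proximal one. Its values were 77.9 and 91.6 FPKM in distal, 74.7 and 83.2 FPKM in middle, and 74.6 and 77.1 FPKM in proximal libraries (distal minus proximal 0.15, 95% interval -0.10 to 0.40).

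**Figure D3:**
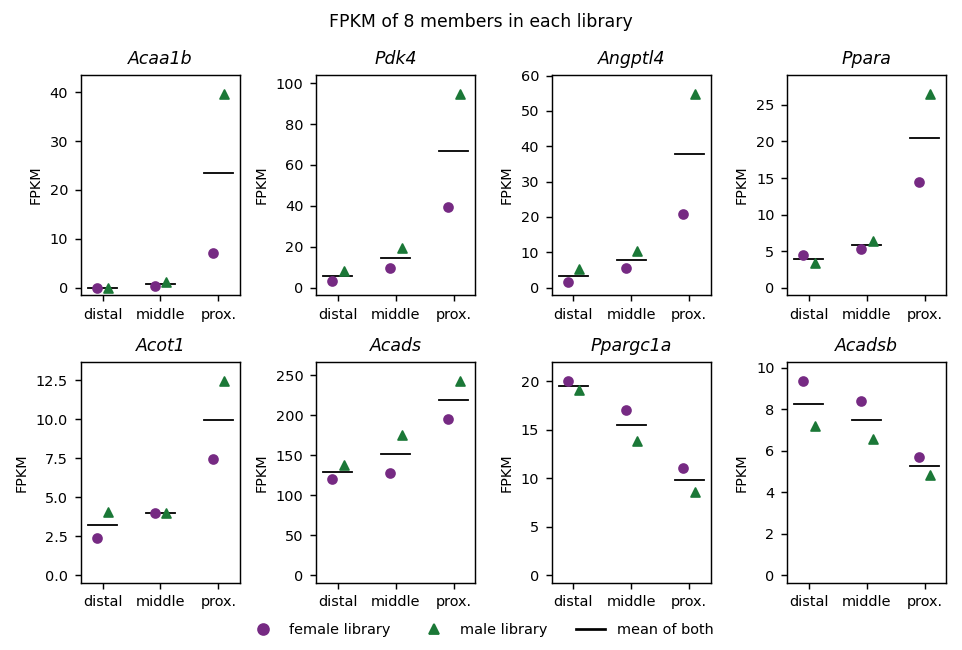
FPKM of 8 members in each library, on linear axes that start at 0, with distal at the left. Circles are female and triangles male libraries, and the line is their mean. Acaa1b, Pdk4, Angptl4 and Ppara are highest in the proximal libraries, and Ppargc1a and Acadsb have their highest mean in distal colon.

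Among ketone body genes the member Bdh1, which interconverts acetoacetate and hydroxybutyrate, did not pass the test. It had 60.3 and 51.1 FPKM in the female and male distal libraries, 56.9 and 56.9 FPKM in the middle ones, and 63.5 and 81.6 FPKM in the proximal ones (distal minus proximal -0.37, SE 0.16, limma adjusted p = 0.19). Of 8 tested genes in a list of other ketone body genes, 3 fell and 2 rose in distal against proximal colon. Among them, the monocarboxylate carrier gene Slc16a7, at most 2.98 FPKM, fell by 1.64. Oxct1, the enzyme that returns ketone bodies to acetyl-CoA, ran the other way at 104 and 79.0 FPKM in distal, 81.5 and 50.02 FPKM in middle, and 45.7 and 24.7 FPKM in proximal libraries. Oxct1 rose by 1.40 on the log2 scale in distal colon (limma adjusted p = 0.0045). The carrier Slc16a1 rose by 0.58.

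**Figure D4:**
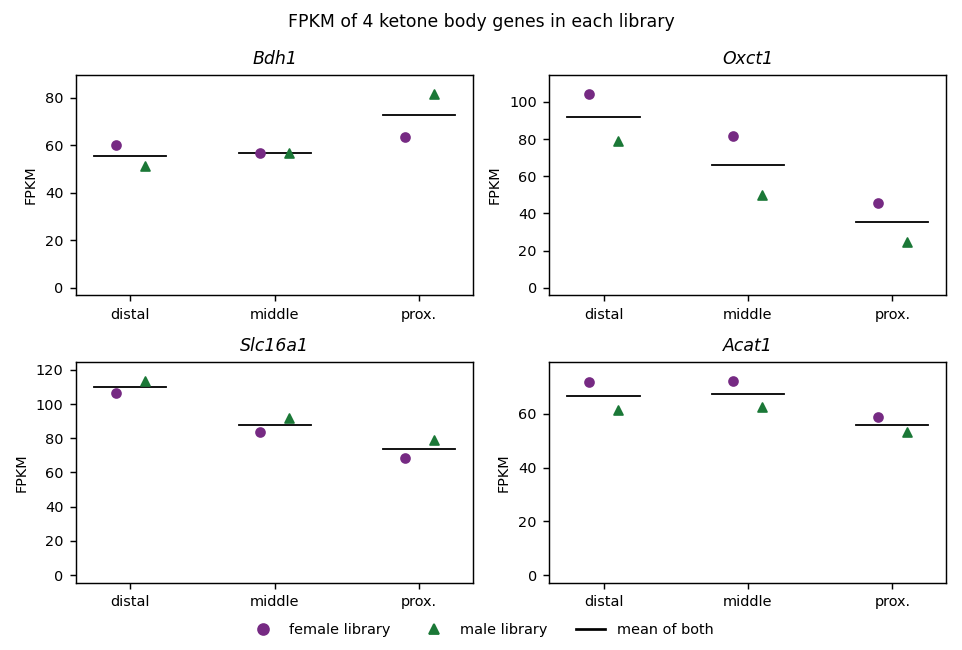
FPKM of ketone body genes in each library, on linear axes that start at 0, with distal at the left. Circles are female and triangles male libraries, and the line is their mean. Oxct1 and Slc16a1 have their highest mean in distal colon, and the member Bdh1 differs little apart from the male proximal value. Acat1, the thiolase that joins acetyl-CoA units, was not called.

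Other genes of fat metabolism were counted from lists drawn up by function, with earlier results of these data known. Of 27 tested genes in a list of other oxidation genes, 10 fell in distal against proximal colon and 1 rose. Among those that fell were Acacb (-2.44), whose enzyme makes the malonyl-CoA that restrains Cpt1a, the oxidase Acox2 (-1.77), and the acyl-CoA synthetase genes Slc27a4 (-1.70) and Slc27a2 (-1.46). Of 13 tested genes in a list of other PPAR targets, 7 fell and 0 rose by limma. Among them were the lipase gene Mgll (-3.77), the pantetheinase gene Vnn1 (-3.42) and the lipid droplet gene Cidec (-2.65). Vnn1 and Acox2 were below 1 FPKM in both distal libraries, so their differences depend on the added 1 FPKM.

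Among 17 tested PPAR partners and cofactors, 4 fell in distal colon by limma: Pparg (-1.08), the deacetylase gene Sirt1 (-0.68), the retinoid X receptor gene Rxra (-0.50) and the corepressor gene Ncor1 (-0.45). Of 15 tested fatty acid synthesis genes, 4 fell and 2 rose. Me1 fell by 3.41 and Acacb, which is in both lists, by 2.44, whereas Scd2 rose by 2.04 and Acly, which makes cytosolic acetyl-CoA, by 1.39. Me1 was at 0.066 and 0.042 FPKM in the female and male distal libraries, so its difference depends on the added 1 FPKM.

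Mitochondrial and peroxisomal genes outside fat oxidation were counted beside the members. In a list of 28 tested TCA cycle and respiratory chain genes 1 passed in distal against proximal colon, the citrate synthase gene Cs, which rose by 0.61, and the list's median difference was -0.03. These genes summed to 11314 and 10455 FPKM in the female and male distal libraries and to 10855 and 11559 FPKM in the proximal ones. In a list of 22 tested genes of peroxisome formation and content, 1 passed, Pxmp4, which fell by 0.75, and the median was 0.04.

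Markers of other cell types and states also differed between regions, in both directions. Of 17 tested surface colonocyte markers 6 were lower and 0 higher in distal against proximal colon by limma, with sums of 22657 and 22790 FPKM in distal and 27997 and 36745 FPKM in proximal libraries. Of the 17, 11 were fitted below 0, and Car1 alone gave 6685 and 19757 FPKM of the proximal sums. Of 9 tested lymphocyte markers 4 were lower, with sums of 15.2 and 12.7 FPKM in distal and 39.8 and 91.3 FPKM in proximal libraries. Of 15 tested proliferation markers 6 were lower, with sums of 175 and 226 FPKM in distal and 312 and 309.9 FPKM in proximal libraries. Of 11 tested crypt base markers 4 were lower, with sums of 172 and 203 FPKM in distal and 375 and 350.2 FPKM in proximal libraries. Of the 11, 8 were fitted below 0, whereas Ascl2 (0.01), Smoc2 (0.64) and Sox9 (0.51) were above 0 and not called. Prom1 alone gave 165 and 155 FPKM of the proximal sums, and 22.9 and 53.6 FPKM of the distal ones. Adipocytes are rich in Pparg and Angptl4. Of their 7 markers, Adipoq and Retn were listed at 0 in all 6 libraries, and Lipe, the only 1 to pass the filter, was lower in distal colon (-0.71). Of 10 tested goblet cell markers 4 were higher and 3 lower, with sums of 9174 and 8376 FPKM in distal and 6581 and 6257 FPKM in proximal libraries. Of the 10, 5 were fitted below 0. Zg16 alone gave 3776 and 3478 FPKM of the distal sums and 1803 and 1025 FPKM of the proximal ones, whereas Muc2 fell by 2.31. Of 7 tested enteroendocrine markers 2 were higher and 2 lower, with sums of 234 and 187 FPKM in distal and 199 and 274 FPKM in proximal libraries. Of 4 tested tuft cell markers 2 were lower, with sums of 1.23 and 2.01 FPKM in distal and 7.72 and 9.85 FPKM in proximal libraries. The 7 adipocyte markers summed to 3.995 and 5.004 FPKM in distal and to 5.89 and 8.75 FPKM in proximal libraries. The part of these cell types and states in the members' differences was not tested.

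In middle against proximal colon, 3 members fell and 0 rose by limma, Pdk4, Angptl4 and Acaa1b, which is 7.69% of the members, where 2.45% of all genes passed in either direction (1.25% lower and 1.19% higher). At an unadjusted p under 0.05 there were 19 of 39 members, against 18.3% of all genes. The median difference of the members was -0.29, against 0.00 over all genes tested. Of the 39 members 35 were fitted below 0, against 49.9% of all genes. The count was 0 without the female middle library, 1 without the male middle library and 9 without the female proximal library. Where that female library was left out, 806 of 11815 genes passed, and 0 passed without the female middle library.

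In distal against middle colon Pdk4 alone of the 39 members passed the limma test, 2.56% of them, where 0.499% of all genes passed (0.389% lower and 0.11% higher), and 4 members (10.3%) had an unadjusted p under 0.05, against 12.7% of all genes. The median difference was -0.04, with 23 members fitted below 0 and 16 above, where 48.4% of all genes tested were below 0. For Ppara the distal minus middle difference was -0.47, and for Acads it was -0.21. From proximal to distal, 16 of 39 members (41.0%) stepped down in both sexes, against 11.3% of the kept genes, and 3 members stepped up in both, Ppargc1a, Ppard and Acadsb, against 11.3% of the kept genes.

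Between the sexes no member passed the limma test, and 9 of 39 had an unadjusted p under 0.05, against 10.6% of all genes. Of all genes 0.0423% passed the adjusted threshold, 0.0339% lower and 0.00846% higher in females. For 0 of 39 members were all female values below all male values, against 4.64% of all genes. Female minus male, the median difference of the members was -0.02 in distal, -0.01 in middle and -0.32 in proximal colon. Pdk4 and Angptl4 were lower in the female library of each region, by 1.09 and 1.12 on the log2 scale over the 3 regions (limma adjusted p = 0.082 and 0.25). In distal against proximal colon the male difference was below the female one for 34 of 39 members. The median difference was -0.21 in females and -0.51 in males. The labels give 1 library for each sex in a region, so whether the regions differ more in males than in females cannot be told apart from the spread of single libraries.

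**Figure D5:**
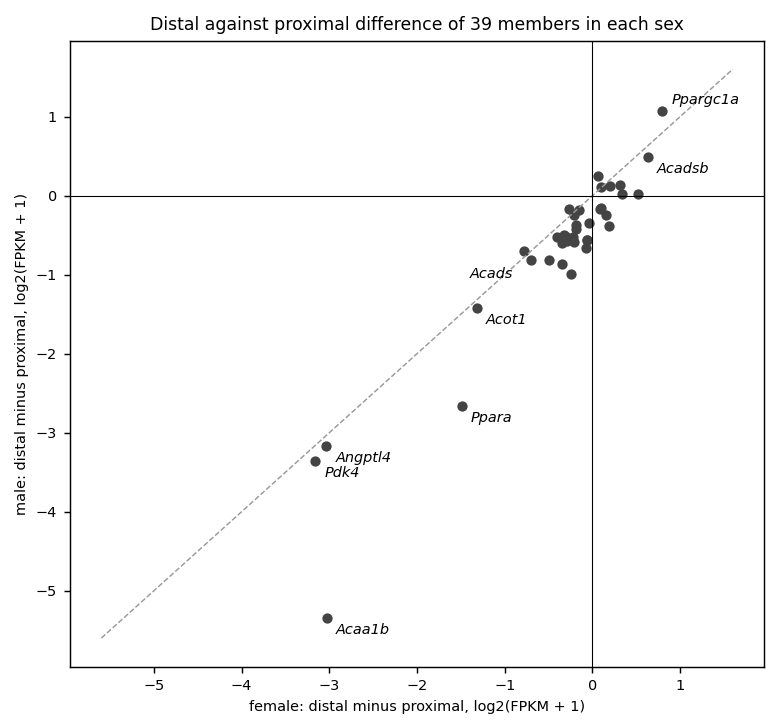
Difference of log2(FPKM + 1), distal minus proximal, of the 39 members in the female libraries (horizontal) and male libraries (vertical). Each point is a gene and the dashed line marks equal differences. For 34 of 39 genes the point lies below the line, and Acaa1b and Ppara lie farthest below it.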

How the data were processed

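Epithelial RNA was measured in 6 libraries. The authors deposited 1 FPKM value a gene for each library. The submitters' processing notes name mm10 and, with no role or order, Cuffdiff 2.2.1, TopHat2 2.1.1, SAMtools 0.1.18 and Bowtie2 2.2.8. Per the labels, the mRNA library kit kept strand. For the annotation, the settings and the strand setting in counting, the sources used here say nothing. The depth estimate used low values (under 0.2 FPKM) of genes with 1 transcript over 1500 bases and an assumed fragment length of 200 bases. Regions and sexes come from the labels.

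A gene needed 1 FPKM or more in 2 or more libraries, which left 11815 of 24346. Region and sex were fitted with limma 3.58.1 (R 4.3.3) on log2(FPKM + 1), which understates changes of low genes, with variances moderated along the mean, 2 residual and 3.49 prior degrees of freedom. A region by sex term leaves no residual degrees of freedom. The fit was tested on simulated data, where the share of false calls was above the nominal one, so calls close to the threshold are less secure than their adjusted p. Members and lists were chosen with earlier results of these data known. Per-library values are given for members that passed a test, the most abundant member of each step, and any listed at 0 in a region. Of each list, the 4 largest called differences are named, except that some genes of these lists are not reported here. Alternatives were another pseudocount, filter, scaling or variance model, sex left out, each library left out and, chosen after seeing the data, near-identical copies summed. Gene positions come from GENCODE M21. Figures used matplotlib 3.10.9 and alignments Biopython 1.88.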

Additional observations from a re-analysis of the deposited data

Results flagged for a closer look

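For 4 members the region difference had opposite signs in the sexes and exceeded in each the standard error fitted over both sexes. A difference within 1 sex rests on fewer libraries, so its own standard error would be larger. The difference between the sexes was not tested, since each sex has 1 library a region. Crat, the carnitine acetyltransferase, had a distal minus proximal difference of 0.185 on the log2 scale in females and -0.379 in males. For the synthetase Acsl3 these were 0.160 and -0.248. The carrier Slc25a20 had a middle minus proximal difference of 0.208 in females and -0.236 in males. The thioesterase Acot2, near-identical to Acot1, had a distal minus middle difference of -0.468 in females and 0.429 in males. In the comparisons with proximal colon the male proximal value was the highest of the 6 for Crat and Acsl3.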

How the results depend on the processing

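The calls of Ppara, Pdk4 and Angptl4 in distal against proximal colon held in 14 of 14 alternatives, and that of Acaa1b in 13 of 13. The cause of the changes below was not tested. Without the filter on low values, 1 member rose in distal against proximal colon, 0 fell in middle against proximal and 0 in distal against middle. With sex left out of the model these counts were again 1, 0 and 0, and without the variance trend the last was 0. Leaving out each library in turn gave 0 to 1 members higher and 4 to 13 lower in distal against proximal colon, with a median of -0.526 to -0.221. For middle against proximal colon it gave 0 to 9 lower. For distal against middle colon it gave 0 to 2 lower and a median of -0.121 to 0.0775. For female against male it gave 0 to 1 lower and a median of -0.178 to 0.0143. Over all genes, 289 passed in middle against proximal colon, but 4 without the filter, 24 with sex left out and 187 without the variance trend. In distal against middle colon 59 passed, but 2, 17 and 29 under the same alternatives. A region left with 1 library was assumed to vary like the others. With an alternative, 59 gene calls were lost and 21 gained over the 4 comparisons. A pseudocount of 0.1, a minimum of 5 FPKM, quantile normalization and median-ratio scaling moved the members' counts by at most 1. Each sex has 1 library in each region, so the sex term also acts as a block over the regions, and the fit with sex left out is the one with no such block. At 7.85 to 9.92 M fragments, genes near 1 FPKM rest on few fragments.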
